A study of Mus musculus with 8 samples.

Results

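Germinal centre B cells sorted on day 10 of a first T-dependent response were compared with germinal centre B cells sorted on day 4 of a T-dependent response in carrier-primed mice. The comparison used 4 of the 8 microarrays of the study, 2 in each group, chosen by the group given in the sample titles, and covered every probe set that is not an array control. The study measured gene expression in 4 populations of sorted mouse B cells with an Affymetrix array on which each probe set reports 1 transcript or a few. All mice were F1 offspring of QM and C57BL/6 (B6) parents, and each array held RNA pooled from several mice, so differences between single animals cannot be seen. QM mice carry a rearranged antibody heavy chain gene that makes many of their B cells specific for the hapten NP, so the responding cells are less diverse than in an ordinary mouse.

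The day 4 group, here called TD day 4, was primed intraperitoneally with 50 µg of alum-precipitated CGG (the carrier protein) and heat-killed B. pertussis. After 5 weeks it received a challenge of soluble NP-CGG (50 µg, no adjuvant named in the labels), and cells were sorted as GL7+ B220+ 4 days later from pools of 6 and 9 mice. The day 10 group, TD day 10, had no carrier priming, received alum-precipitated NP-CGG (50 µg) with heat-killed B. pertussis intraperitoneally, and was sorted as GL7+ B220+ cells after 10 days from 2 pools of 6 mice. The study's design text gives the later peak of the response in unprimed mice as the reason for day 10. The day, the earlier priming and the adjuvant at the last dose therefore differ together, and their effects cannot be told apart. Resting B cells (GL7- B220+, unimmunised mice of the same cross, pools of 6 and 9) and GL7+ B220+ cells from day 4 of a T-independent response to 30 µg of NP-Ficoll (TI day 4, pools of 4 and 10) served as references. The labels call the replicates biological.

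Germinal centres form in B cell follicles when activated B cells proliferate, mutate their antibody genes and compete for help from T cells. Their B cells depend on the transcriptional repressor Bcl6, cycle fast in the dark zone, and test their receptors in the light zone before they leave as memory or plasma cells. In a carrier-primed animal, memory helper T cells are already present when the hapten-carrier conjugate arrives, and the germinal centre response is quicker than in a first immunisation.

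Values are array intensities. Those under 81 units, the 50th percentile of all values, were set to that floor before log2 was taken, because 30.1% of the deposited values were 0 or below. Of 12488 probe sets, 7253 passed a filter of values above the floor on at least 2 of the 8 arrays, and they covered 5433 named genes. Array medians were 77 to 89 units. For the Gapdh control, the ratio of 3' to 5' signal (a sign of RNA integrity) was 0.954 to 0.981 in TD day 4 and 0.836 to 0.896 in TD day 10, against 0.867 to 1.68 in the other 4 arrays.

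The sorted cells carried the markers of their label in both TD groups. The B cell genes Cd79a, Cd79b, Ms4a1, Cd22 and Pax5 were far above the floor on all 4 TD arrays, with Cd79a at 4635 and 5621 units in TD day 4 and at 4405 and 4669 in TD day 10. Bcl6 was at 1409 and 1236 units in TD day 4 and at 1475 and 1407 in TD day 10, against 452 and 438 in resting cells. Gcsam, a signalling adaptor of germinal centre B cells, was at 753 and 661 in TD day 4 and at 768 and 501 in TD day 10, against 154 and 101 in resting cells and 156 and 131 in TI day 4. Both genes were higher on every TD array than on every resting array, and the TD groups overlapped with each other. Over all probe sets above the floor on all 4 TD arrays, the TD groups did not overlap on 40.6%, so overlap was the commoner outcome.

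No probe set passed the threshold between TD day 10 and TD day 4. In limma, 0 of 7253 probe sets (0%) had an adjusted p under 0.05, and the smallest adjusted p was 0.142. At an unadjusted p under 0.05 there were 373 (5.14%), 229 of them higher in TD day 10 (3.16%) and 144 lower (1.99%). About 362.7 would fall under that level if no probe set differed. That expectation counts 227 probe sets at or under the floor on all 4 TD arrays, whose difference is 0 by construction. The count also moved with the processing. It was 487 of 6555 with the 4 TD arrays alone and 547 of 7253 with array weights. It was 244 of 5296 with only probe sets above the floor on all 4 TD arrays, and 345 of 7253 with a trended robust prior. By the main model 971 probe sets (13.4%) separated the mean of both TD groups from resting cells, and 105 (1.45%) separated TI day 4 from TD day 4. The count for TI day 4 was 5 without TI day 4 replicate 1, 0 without TI day 4 replicate 2, 1 without TD day 4 replicate 1, 7 without TD day 4 replicate 2, 29 without either TD day 10 array and 167 without either resting array.

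A p above the threshold does not show that 2 groups are alike, so the 95% interval of each log2 difference was set against a window of 2-fold either way. The window was applied to the 5296 probe sets that were above the floor on all 4 TD arrays, since a gene at the floor in both groups has a difference of 0 by construction. For 3526 of them (66.6%) the whole interval lay inside the window. The interval lay wholly outside it for 1 probe set (0.0189%). The measured difference itself exceeded 2-fold for 102 (1.93%), 52 higher and 50 lower in TD day 10, and its median size was 0.18 on the log2 scale. The median interval reached 0.59 to either side, so smaller differences in a single gene were mostly within its error.

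The share inside the window rose with brightness, from 54.5% in the dimmest of 4 equal bins of 1324 probe sets (mean levels of 88 to 206 units) through 56.8% and 70.1% to 85% in the brightest (677 units and above). The SD of the log2 difference was 0.37, 0.39, 0.33 and 0.26 in the same bins. On the 4847 probe sets above the floor on all 6 germinal centre arrays, 3327 (68.6%) had the interval of TD day 10 against TD day 4 inside the window, and 2969 (61.3%) that of TI day 4 against TD day 4. The median size of the difference was 0.17 for the first and 0.24 for the second on the log2 scale. These shares move with the processing: a floor at the 40th percentile gave 53.5%, a pseudocount in place of the floor 80.5%, and leaving out 1 TD array 45.3% to 49%.

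**Figure D1:**
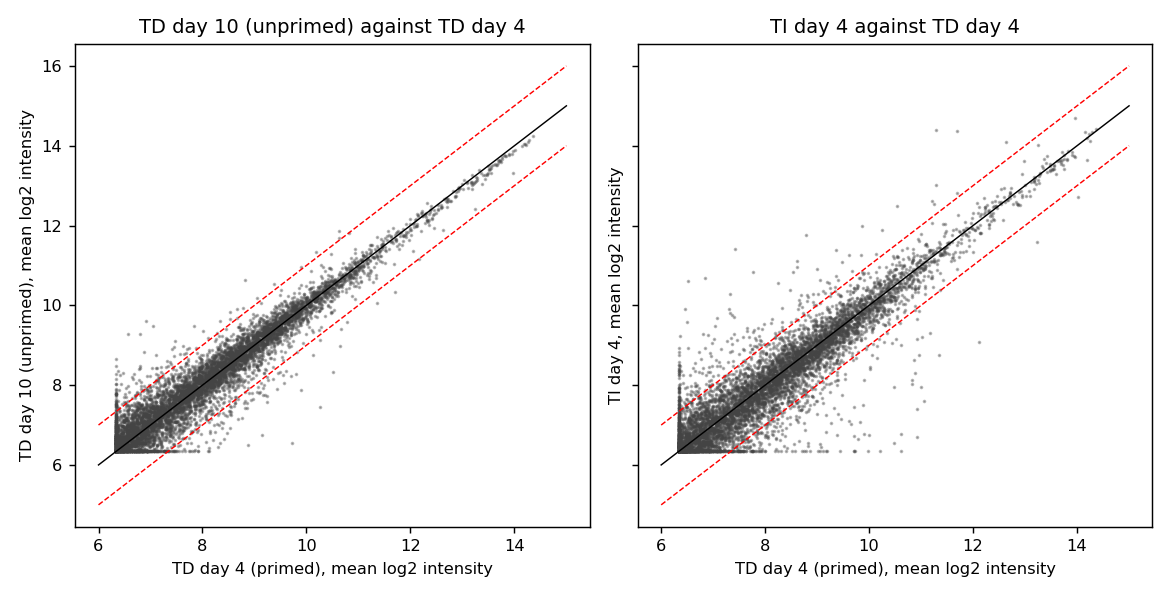
Mean log2 intensity of each tested probe set in TD day 10 (left) and in TI day 4 (right) against its mean in TD day 4; each dot is 1 probe set, the solid line is equality and the dashed lines are 2-fold either way. In the left panel 0 of 7253 probe sets passed the threshold and in the right panel 105 did, with dots farther from the line at all but the highest levels.

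Single arrays gave the same picture. Over the 4488 probe sets above the floor on all 8 arrays, log2 differences between the 2 TD day 4 arrays had an SD of 0.39, and those between the 2 TD day 10 arrays 0.44. The 4 pairs made of 1 array from each TD group gave 0.41 to 0.47, so arrays of different TD groups were about as far apart as arrays of the same group. Pairs of a TD day 4 and a TI day 4 array gave 0.53 to 0.59. Pairs of a TD day 10 and a TI day 4 array gave 0.57 to 0.66, and pairs of a TD and a resting array 0.70 to 0.80. The 2 TI day 4 arrays gave 0.44 and the 2 resting arrays 0.57. The resting pair was thus as far apart as pairs of a TD day 4 and a TI day 4 array. Pearson's r across these probe sets was 0.945 and 0.959 within the TD groups and 0.937 to 0.952 between them. These are descriptions across genes, which share arrays and are not independent replicates.

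**Figure D2:**
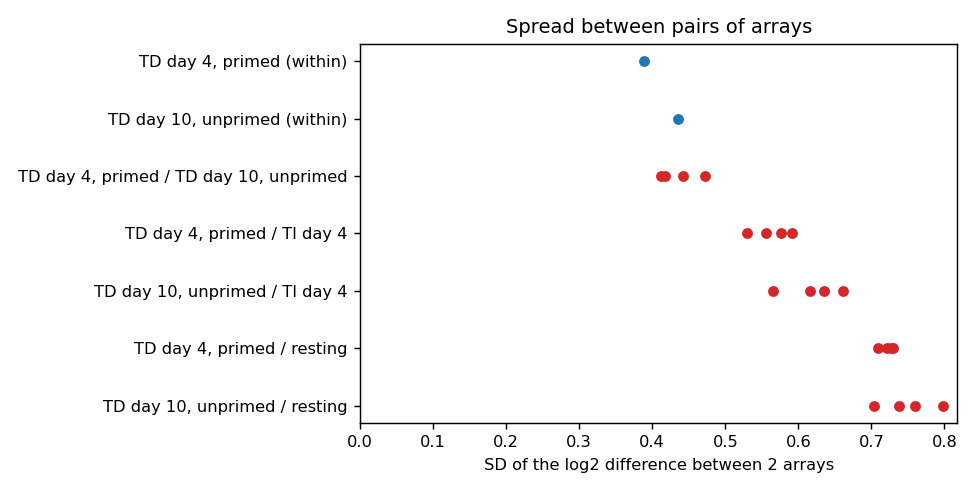
SD of the log2 difference between 2 arrays over the 4488 probe sets above the floor on all 8 arrays; each dot is 1 pair of arrays, blue within a group and red between groups. Pairs across the TD groups (0.41 to 0.47) lie beside the pairs within them (0.39 and 0.44). Pairs of a TD array with a TI day 4 or resting array lie farther right. The pair within TI day 4 (0.44) and the pair within resting cells (0.57) are not drawn.

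The mean of the 2 TD groups was compared with resting cells, a contrast that uses no difference between them. Of 7253 probe sets, 580 were higher (8%) and 391 lower (5.39%) in this mean than in resting cells. A call on the mean does not require a change in each group. Against resting cells, limma called 683 probe sets (9.42%) in TD day 4 alone and 790 (10.9%) in TD day 10 alone. How many were called in both was not counted. Basp1, Stmn1, Anxa2, Hmgb2 and Pclaf had the largest rises, and on each of them the 2 TD groups overlapped. The TD groups did not overlap on 2151 of 5296 probe sets above the floor on all 4 TD arrays (40.6%). Overlap on a single gene, here and below, is therefore common and does not set that gene apart. The resting arrays are shared by both groups, so the folds of TD day 4 and TD day 10 given below are not independent of each other. In sorted bulk RNA, fewer cells of a type and less RNA per cell cannot be told apart. The count was 607 without TD day 4 replicate 1, 613 without TD day 4 replicate 2, 610 without TD day 10 replicate 1 and 642 without resting replicate 2, each time with fewer arrays in the fit.

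Stmn1, which binds tubulin and destabilises microtubules, was under the floor on both resting arrays, at 2608 and 2079 units in TD day 4 and at 2387 and 2207 in TD day 10. It rose at least 28.7-fold in TD day 4 and at least 28.3-fold in TD day 10, and the difference between the TD groups was -0.02 on the log2 scale (95% interval -0.44 to 0.40). The TD groups overlapped and lay far above resting cells. Hmgb2, a chromatin protein abundant in dividing cells, was at 179 and 185 units in resting cells, 3032 and 2772 in TD day 4 and 2911 and 2771 in TD day 10. Its rise was 15.9-fold in TD day 4 and 15.6-fold in TD day 10. Pclaf, a partner of the replication clamp PCNA, was at 159 and 104 in resting cells, 1711 and 1944 in TD day 4 and 1756 and 1661 in TD day 10, a rise of 14.2-fold and 13.3-fold. Its 2 dimmer probe sets stayed at or near the floor, at most 194 units on any array.

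Anxa2, a calcium-dependent membrane-binding protein, was under the floor on both resting arrays, at 1903 and 1555 in TD day 4 and at 1886 and 2072 in TD day 10. It rose at least 21.2-fold in TD day 4 and at least 24.4-fold in TD day 10, with a log2 difference of 0.20 ± 0.17 (SE) between them. Basp1, a membrane-associated signalling protein, was under the floor in resting cells on 1 probe set, at 5311 and 3677 in TD day 4 and at 4375 and 4794 in TD day 10. A second Basp1 probe set gave 3376 and 2462 units in resting cells and 3820 to 4183 in the TD groups, and its difference from resting did not pass (limma, adjusted p = 0.178). The 2 Basp1 probe sets therefore disagree about resting cells, while on both the TD groups overlapped. Uhrf1, which takes part in copying DNA methylation to new strands, rose 7.19-fold in TD day 4 and 6.76-fold in TD day 10. Dck, the kinase that salvages deoxycytidine, rose 6.81-fold and 6.46-fold.

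The chromosome segregation genes Cks2 and Cks1b, small subunits that bind cyclin-dependent kinases, followed the same course. Cks2 was under the floor on both resting arrays, at 1053 and 906 in TD day 4 and at 1045 and 1121 in TD day 10. Cks1b was also under the floor in resting cells, at 1100 and 903 in TD day 4 and at 976 and 986 in TD day 10. Cks2 rose at least 12.1-fold in TD day 4 and at least 13.4-fold in TD day 10, and Cks1b at least 12.3-fold and at least 12.1-fold, and on both genes the TD groups overlapped. Mki67, the proliferation marker Ki-67, was at 500 and 491 in TD day 4 and at 623 and 522 in TD day 10, with both resting arrays under the floor, and the log2 difference between the TD groups was 0.20 (95% interval -0.64 to 1.05). On a second Mki67 probe set, used in the lists, resting cells were at 195 and 105, and TD day 4 exceeded them 2.63-fold and TD day 10 exceeded them 2.62-fold. Cdc20, the activator of the anaphase-promoting complex, rose 5.50-fold in TD day 4 and 5.58-fold in TD day 10.

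Promoter sequences of 4 genes of mitosis are shown because these genes rose together in both TD groups. They are 4 of the genes with large rises in the list of G2 and mitosis genes, and the set was chosen after its values were seen. Each run covers 250 bases before to 50 bases after the gene start in RefSeq, build GRCm38.p6, 5′ to 3′ on the strand of the gene. Capitals mark CCAAT, the motif bound by the factor NF-Y, and TTTGAA, the core of the CHR element of cell cycle promoters, each searched on both strands (ATTGG and TTCAAA are their reverse complements). The runs lie at chr13:51644982-51645281 (plus strand) for Cks2, chr3:89418242-89418541 (minus strand) for Cks1b, chr4:124936868-124937167 (minus strand) for Cdca8 and chr4:118437294-118437593 (minus strand) for Cdc20.
Cks2: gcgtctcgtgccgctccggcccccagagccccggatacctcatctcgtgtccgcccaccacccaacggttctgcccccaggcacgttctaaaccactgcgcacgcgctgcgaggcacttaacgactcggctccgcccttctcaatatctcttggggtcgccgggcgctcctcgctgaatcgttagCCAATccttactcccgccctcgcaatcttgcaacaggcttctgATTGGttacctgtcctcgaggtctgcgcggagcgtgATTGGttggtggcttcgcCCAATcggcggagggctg
Cks1b: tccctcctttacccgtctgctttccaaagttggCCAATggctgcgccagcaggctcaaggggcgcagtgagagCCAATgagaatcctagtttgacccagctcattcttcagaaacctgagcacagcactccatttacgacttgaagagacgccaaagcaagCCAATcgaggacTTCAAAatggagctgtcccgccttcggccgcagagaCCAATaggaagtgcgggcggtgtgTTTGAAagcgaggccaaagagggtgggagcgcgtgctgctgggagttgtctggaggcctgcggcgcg
Cdca8: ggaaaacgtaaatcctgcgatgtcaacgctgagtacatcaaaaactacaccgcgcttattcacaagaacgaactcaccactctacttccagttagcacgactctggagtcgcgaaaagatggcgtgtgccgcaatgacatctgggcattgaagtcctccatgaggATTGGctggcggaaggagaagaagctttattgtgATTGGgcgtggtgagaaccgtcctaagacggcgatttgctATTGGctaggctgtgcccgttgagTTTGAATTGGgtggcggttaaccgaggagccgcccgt
Cdc20: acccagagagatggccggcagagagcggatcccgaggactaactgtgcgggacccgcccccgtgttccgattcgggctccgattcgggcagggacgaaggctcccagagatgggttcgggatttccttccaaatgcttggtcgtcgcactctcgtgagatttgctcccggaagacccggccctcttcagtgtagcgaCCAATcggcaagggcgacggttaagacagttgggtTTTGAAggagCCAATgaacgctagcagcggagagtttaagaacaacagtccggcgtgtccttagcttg

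CCAAT or its complement occurs 4 times in the Cks2, Cks1b and Cdca8 windows and 2 times in that of Cdc20. TTTGAA or its complement occurs 2 times in Cks1b, once in Cdca8, where it overlaps a CCAAT match, and once in Cdc20, and these letters are not in the Cks2 window. Of the 22 measured G2 and mitosis genes with a promoter row, 81.8% hold CCAAT, 77.3% TTTGAA and 72.7% both. Among the 14 of them called higher against resting cells the shares are 78.6%, 78.6% and 71.4%. The 14 are part of the 22, so these shares do not show whether the motifs go with the rise, which was not tested. Over the promoters of all 27025 genes in the table the shares are 37.9%, 18.1% and 7.12%. A match in these letters is a description and not a measured binding site.

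The largest falls from resting cells included transcripts of other blood cells. The haemoglobin genes Hba-a1 and Hbb-b2 were at 15550 and 13751 and at 8744 and 7985 units in resting cells. In the TD groups Hba-a1 was at 285 to 696 units and Hbb-b2 at 65 to 329. The summed level of 7 red cell markers was 29426 and 25973 units in resting cells, 4144 and 4056 in TD day 4 and 4317 and 4587 in TD day 10, and that of 10 neutrophil markers 7447 and 7770, 2616 and 2705, and 3091 and 3490. Between the TD groups these sums differed little beside their distance from resting cells. Among B cell genes, S1pr1, which lymphocytes use to leave lymphoid organs, was at 765 and 937 in resting cells, 98 and 135 in TD day 4 and 77 and 97 in TD day 10. It fell in both TD groups (limma, adjusted p = 0.00165 in TD day 4, where 9.42% of probe sets were called, and 0.00131 in TD day 10, where 10.9% were). Of the 30 probe sets with the largest rises and falls, S100a9, a neutrophil protein, lost its call in 7 of the 19 alternative settings run for it, and 1 probe set of Ighv14-2 in 1 of 21.

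**Figure D3:**
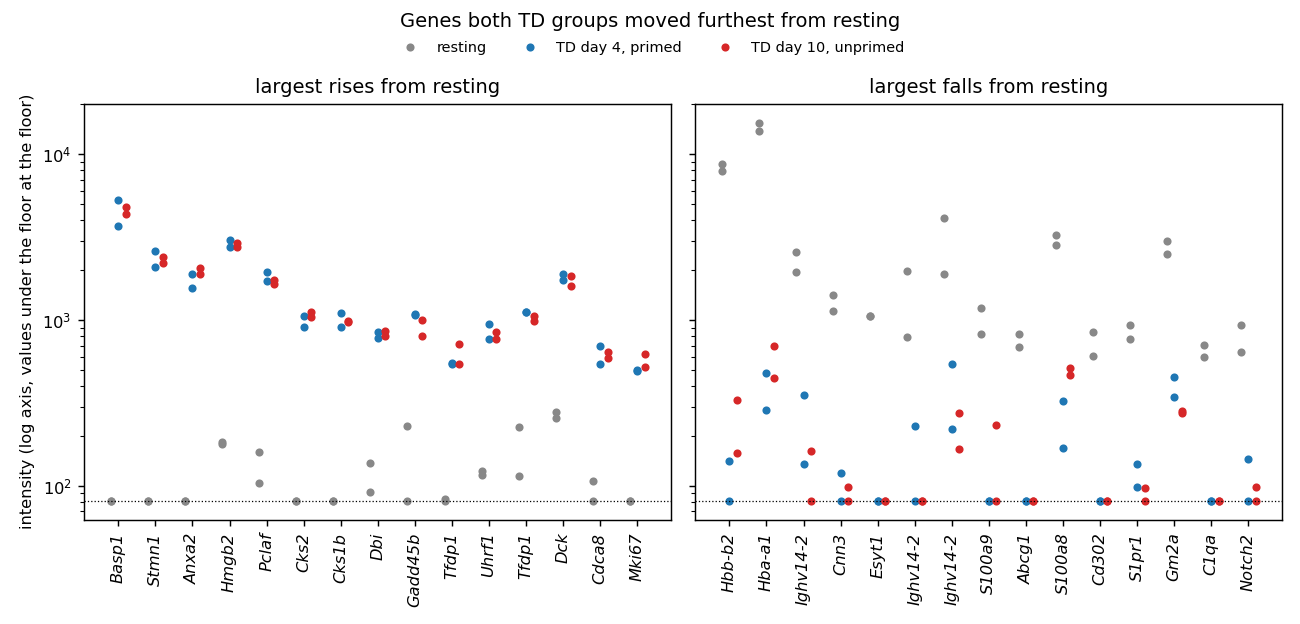
Intensity (log axis) of the 15 probe sets with the largest rises (left) and falls (right) of both TD groups from resting cells; each dot is 1 array, values under the floor are drawn at the dotted line of 81 units, and a repeated gene name marks several probe sets of that gene. Blue and red dots lie near each other for most genes, and grey resting dots lie apart.

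Across the 818 probe sets that were called against resting cells and above the floor on all 4 TD arrays, the median size of the change from resting was 1.10 on the log2 scale, and the median size of the difference between the TD groups was 0.14. For 770 of them (94.13%) the difference between the TD groups was under 50% of the change from resting, and for 4 it was larger. The 818 were chosen for a change from resting that was large beside the spread. These medians and the 94.13% are therefore partly set by that choice and are no separate evidence that the groups are alike. The interval lay inside the 2-fold window for 693 of the 818 (84.7%), but the same estimate of spread entered both choices, so this share is no separate evidence. An unadjusted p under 0.05 between the TD groups was found for 70 of the 971 (7.21%), beside 5.14% over all probe sets tested.

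The probe sets with the smallest p between TD day 10 and TD day 4 are given as values, since none passed. On 19 of the 30 with a gene name, 15 in each direction, at least 1 array of the dimmer TD group was at or under the floor, and on 14 both were. The groups did not overlap on any of the 30, as the choice by p implies, beside 2151 of 5296 (40.6%) over all probe sets above the floor on the TD arrays.

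Prpf19, Kpnb1 and Zfp292 led the probe sets with 1 gene name that were higher in TD day 10, and each has a brighter probe set with a small difference. Prpf19, a splicing factor and ubiquitin ligase, was at 96 and 66 units in TD day 4 and at 298 and 336 in TD day 10 (limma, adjusted p = 0.142), at least 3.58-fold higher. Its brighter probe set was at 875 and 868 in TD day 4 and at 909 and 849 in TD day 10, a log2 difference of 0.01 ± 0.18 (SE). Kpnb1, the nuclear import receptor importin beta, was at 39 and 80 in TD day 4 and at 227 and 209 in TD day 10. Its brighter probe set was at 556 and 329 and at 319 and 499, with overlap. Zfp292, a zinc finger protein, was under the floor on both TD day 4 arrays and at 193 and 197 in TD day 10, while its brighter probe set was at 638 and 676 and at 705 and 771. The probe sets of these genes thus disagree, and which transcripts each one reads was not tested.

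Foxj1, a forkhead transcription factor known for the genes of motile cilia, had the largest difference among the 15 higher in TD day 10. It was at 81 and 178 units in TD day 4 and at 605 and 1006 in TD day 10, a log2 difference of 2.70 ± 0.42 (SE; limma, adjusted p = 0.275). Resting cells were at 565 and 683 and TI day 4 at 631 and 591, so the TD day 4 arrays lay below all 6 others. Against resting cells Foxj1 fell in TD day 4 (limma, adjusted p = 0.0206) and did not pass in TD day 10 (0.697). Foxj1 was chosen by its p between the TD groups. A pass in 1 group beside a miss in the other is therefore no separate evidence of a difference. Eef1a2, an elongation factor of translation, was at 408 and 337 in TD day 4 and at 764 and 845 in TD day 10. Orc1, a subunit of the origin recognition complex that starts DNA replication, was at 189 and 172 and at 341 and 321, a log2 difference of 0.88 ± 0.15 (SE; limma, adjusted p = 0.352). For both genes the TD day 10 arrays were the highest of the 8.

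Among the named probe sets lower in TD day 10, Inhba, the beta A subunit of activin and inhibin, had the smallest p. It was at 768 and 733 units in TD day 4 and at 278 and 332 in TD day 10, a log2 difference of -1.30 ± 0.17 (SE; limma, adjusted p = 0.207). Resting cells were at 338 and 328 and TI day 4 at 587 and 679, so TD day 10 lay near resting cells and TD day 4 near TI day 4. Inhba rose against resting cells in TD day 4 (limma, adjusted p = 0.0117) and did not pass in TD day 10 (0.699). Since Inhba was also chosen by its p between the TD groups, this is no separate evidence that they differ. Mfsd1, a lysosomal membrane transporter, was at 201 and 292 in TD day 4 and under the floor in TD day 10, but its brighter probe set was at 1432 and 1311 and at 1208 and 1168.

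The protease genes Ctse and Ctsb were among the brighter of these probe sets. Ctsb, cathepsin B of the lysosome, was at 1406 and 1449 units in TD day 4 and at 873 and 907 in TD day 10, a log2 difference of -0.68 ± 0.15 (SE; limma, adjusted p = 0.507). Resting cells were at 1831 and 2041 and TI day 4 at 2406 and 2239, so TD day 10 was lowest. Ctse, cathepsin E of the endosome, was at 954 and 1008 in TD day 4 and at 486 and 576 in TD day 10 on 1 probe set. The other Ctse probe sets differed by -0.27 and -0.19 on the log2 scale. Ctsb is also expressed in macrophages, and the 12 macrophage markers measured, Ctsb among them, summed to 6833 and 6554 units in TD day 4 and to 5578 and 6683 in TD day 10. Their part in the Ctsb values was not tested.

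Ighm, the constant region of the IgM heavy chain, was read by 11 probe sets, which can also catch related heavy chain transcripts. On the probe set with the smallest p it was at 9290 and 10225 units in TD day 4 and at 4926 and 6089 in TD day 10, a log2 difference of -0.83 ± 0.17 (SE; limma, adjusted p = 0.477). The brightest probe set was at 14908 and 17256 in TD day 4 and at 8894 and 11545 in TD day 10 (adjusted p = 0.813). On both, TI day 4 was higher than either TD group, at 15985 and 17178 on the first and at 26623 and 26193 on the second. A dim Ighm probe set went the other way, at 138 and 111 in TD day 4 and at 212 and 249 in TD day 10. Of the 11 Ighm probe sets, 9 were lower and 2 higher in TD day 10, and none passed.

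**Figure D4:**
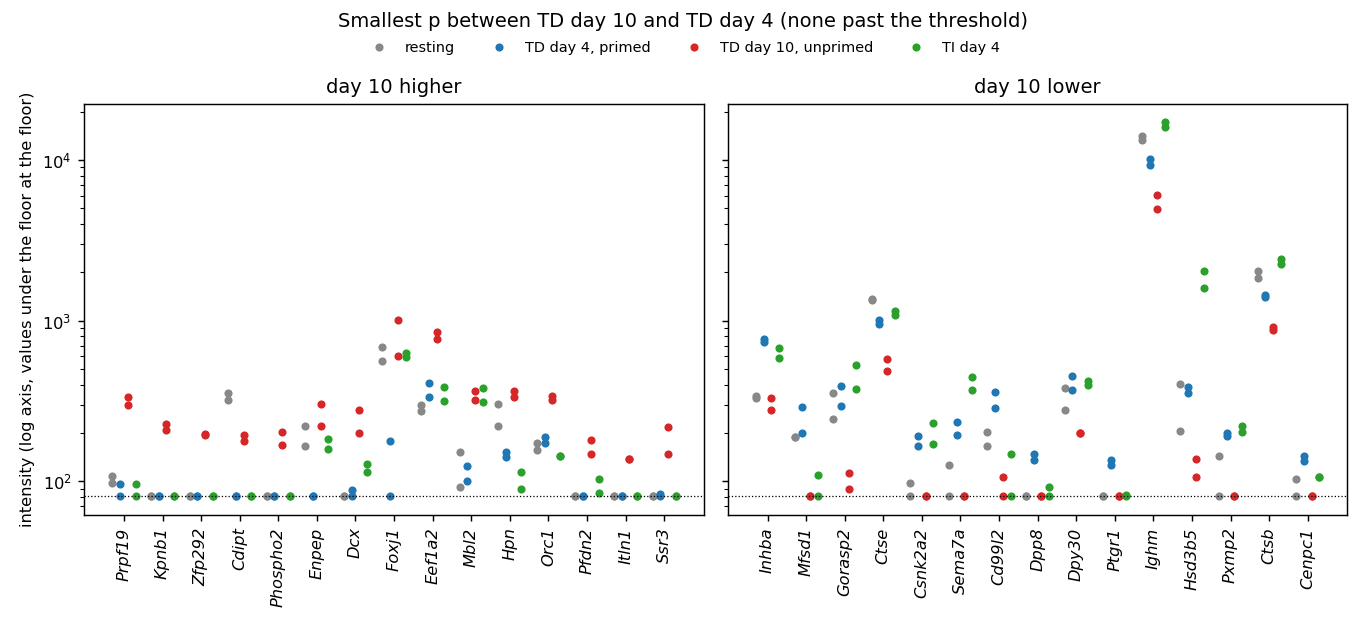
Intensity (log axis) of the 15 probe sets higher (left) and the 15 lower (right) in TD day 10 with the smallest p among those with 1 gene name, none of which passed the threshold; each dot is 1 array and values under the floor are drawn at the dotted line of 81 units. For 14 of the 30 both arrays of the dimmer TD group sit on that line.

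Lists of genes of B cell biology were compared between the TD groups by counts and medians. In all 23 lists, 0 members were called higher and 0 lower (0% of all probe sets), and list medians ran from -0.20 to 0.18 on the log2 scale, beside 0.02 over all probe sets tested. Of the 332 probe sets in these lists, 8 (2.41%) were higher and 5 (1.51%) lower at an unadjusted p under 0.05, beside 3.16% and 1.99% over all probe sets, so the lists held no more of these than the background.

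In the list of germinal centre genes, 15 members were measured, and the interval lay inside the 2-fold window for 13 of the 14 that were above the floor. Their differences ran from -0.34 to 0.42 with a median of 0.06. Against resting cells 6 were called higher and 1 lower, beside 8% and 5.39% of all probe sets. S1pr2, the receptor that keeps B cells in the germinal centre, was at 942 and 845 units in TD day 4 and at 1006 and 1154 in TD day 10, a log2 difference of 0.27 (95% interval -0.15 to 0.69). Mef2b, a transcription factor upstream of Bcl6, was at 1326 and 1187 and at 1347 and 1685, and Bcl6 itself differed by 0.13 (-0.29 to 0.54). On S1pr2 and Mef2b both TD day 10 arrays were above both TD day 4 arrays, by less than the error allowed a call. Lmo2, a further nuclear factor of germinal centre B cells, was at 668 and 682 and at 780 and 701 on its brighter probe set, and at 212 and 201 and at 397 and 356 on the dimmer one.

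The dark zone list had 5 members measured, all with intervals inside the window. Cxcr4, the receptor that draws B cells to the dark zone, was at 445 and 271 units in TD day 4 and at 305 and 352 in TD day 10, with overlap. In the light zone list 5 of the 8 members above the floor had intervals inside the window, a share near the 66.6% over all probe sets. Cd83, a surface marker of light zone cells, was at 1104 and 1048 in TD day 4 and at 949 and 872 in TD day 10 on its brighter probe set. Cd86, a costimulator of T cells, was at 356 and 358 and at 505 and 493. On its dimmer probe set Cd83 was at 381 and 264 and at 471 and 416, so the 2 probe sets of Cd83 disagree in direction. The log2 difference was -0.24 (95% interval -0.77 to 0.28) on the brighter Cd83 probe set, 0.48 (-0.96 to 1.92) on the dimmer one and 0.48 (-0.22 to 1.18) for Cd86, and none passed.

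Egr2 and Nr4a1, transcription factors switched on within hours of antigen receptor signalling, were higher on both TD day 10 arrays. Egr2 was at 205 and 213 units in TD day 4 and at 492 and 471 in TD day 10, with resting cells at 265 and 223, a log2 difference of 1.20 ± 0.41 (SE; limma, adjusted p = 0.852). Nr4a1 was under the floor on both TD day 4 arrays and at 181 and 198 in TD day 10 (adjusted p = 0.852). The list of immediate early genes as a whole had a median of -0.18, with members from -2.38 to 1.22, and 3 of 14 inside the window. A list of 11 sorting stress genes, which shares Fos, Egr1 and Atf3 with it, summed to 7742 and 12526 in TD day 4 and to 9122 and 9355 in TD day 10. Its part in the immediate early values was not tested.

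Most DNA replication genes rose against resting cells on the mean of both TD groups. Of 26 measured members, 19 were called higher than resting (8% of all probe sets) and 0 lower, and 19 of the 23 above the floor had their TD interval inside the window, with a median difference of 0.05. Orc1, described above, and Tk1, the kinase that salvages thymidine, were the members higher in TD day 10 at an unadjusted p under 0.05. Tk1 was at 41 and 84 units in TD day 4 and at 333 and 318 in TD day 10, with TI day 4 at 79 and 517, so single arrays spread widely on this probe set. The G2 and mitosis list was similar in its counts, with 18 of 27 called higher and 0 lower against resting, 18 of 23 inside the window and a median of -0.01 between the TD groups. Cdk1, the kinase that drives entry into mitosis, was at 690 and 416 in TD day 4 and at 397 and 294 in TD day 10, with a log2 interval of -1.32 to 0.03. Incenp, a subunit of the chromosomal passenger complex, was at 461 and 271 and at 551 and 582, a log2 difference of 0.68 (0.04 to 1.32; limma, adjusted p = 0.916).

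Energy and growth genes gave the same kind of count. Of 13 glycolysis genes 6 were called higher than resting and 0 lower, and of 29 oxidative phosphorylation genes 11 and 0, beside 8% higher and 5.39% lower over all probe sets. Of 23 genes of MYC and ribosome biogenesis 5 were called higher and 0 lower. Their medians between the TD groups were 0.05, 0.06 and 0.03, and 11 of 12, 20 of 27 and 17 of 20 members above the floor had intervals inside the window. Ldha, lactate dehydrogenase A, rose on the mean of both TD groups (limma, adjusted p = 0.00739). It was 1.80-fold above resting in TD day 4 and 2.21-fold in TD day 10, and the log2 difference between them was 0.29 (95% interval -0.10 to 0.69).

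Most genes of the resting follicular B cell fell on the mean of both TD groups. Of 12 measured, 0 were called higher and 10 lower than resting (5.39% of all probe sets). Ccr6, a chemokine receptor of naive and memory B cells, stood out among them between the TD groups, with 1505 and 1271 units in resting cells, 595 and 866 in TD day 4 and 409 and 257 in TD day 10. TD day 10 was lowest and TI day 4, at 657 and 821, lay with TD day 4. The log2 difference between the TD groups was -1.15 (95% interval -1.88 to -0.41; limma, adjusted p = 0.653). The B cell receptor list had a median of -0.12, and 17 of its 18 members above the floor were inside the window. Nfatc1, a transcription factor activated by calcium, was at 393 and 403 in TD day 4 and at 220 and 266 in TD day 10 (limma, adjusted p = 0.671), beside 1097 and 842 in TI day 4. The MHC class II list had 16 of 18 inside the window and a median of -0.01, and the intervals of Ctsb and Cd86 were the 2 that crossed its edge.

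Of 22 genes of plasma cells and protein secretion, 4 were called higher than resting cells and 0 lower, beside 8% and 5.39% of all probe sets. Between the TD groups their median was 0.03, and 17 of the 20 above the floor were inside the window. Jchain, the chain that joins IgM and IgA units, was at 2266 and 2770 units in TD day 4 and at 1860 and 2121 in TD day 10, against 803 and 764 in resting cells and 7347 and 9356 in TI day 4. Both TD day 10 arrays were below both TD day 4 arrays, and the log2 difference was -0.33 (95% interval -0.81 to 0.14). Ell2, an elongation factor needed for secretory antibody transcripts, was at 383 and 535 and at 293 and 372 on its brighter probe set, also without a call.

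**Figure D5:**
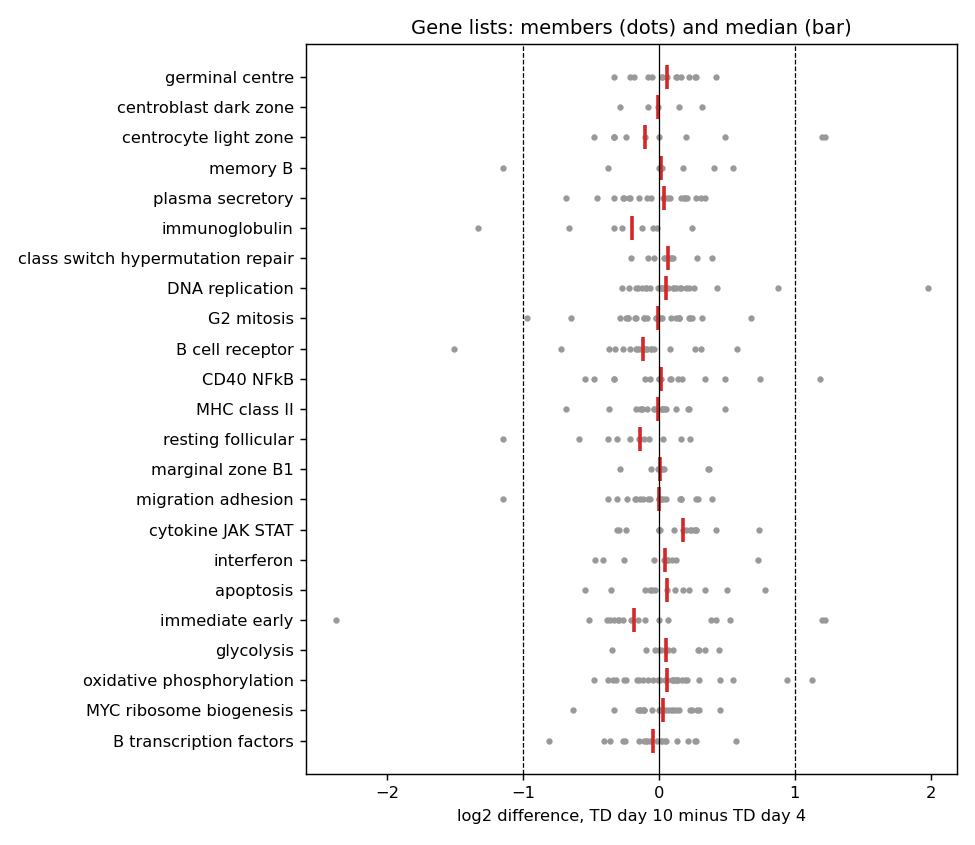
Log2 difference of TD day 10 minus TD day 4 for the measured members of 23 gene lists; each dot is the brightest probe set of 1 gene, the red bar is the median of the list, and the dashed lines are 2-fold either way. All medians lie between -0.20 and 0.18, and most dots lie within the dashed lines.

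No marker of another cell type was called between the TD groups (0% of all probe sets), and their summed levels overlapped for some types and not for others. The 7 T cell markers summed to 2414 and 2331 units in TD day 4 and to 2212 and 2299 in TD day 10. Of these, 3 were above the floor on all 4 TD arrays, and Cd3g and Cd28 were under it on all 4. Cd4 was at 660 and 422 in TD day 4 and at 425 and 710 in TD day 10, against 292 and 339 in resting cells. Cd2 was at 526 and 333 and at 334 and 338, against 838 and 1129 in resting cells. Of the 12 macrophage markers, 7 were above the floor on all 4 TD arrays. Hmox1 was at 1182 and 1333 in TD day 4 and at 1525 and 1794 in TD day 10. C1qa, C1qc, Vcam1 and Lyz2 were under the floor on all 4. Apoe, a lipoprotein made by macrophages, was at 1305 and 1140 in TD day 4 and at 371 and 850 in TD day 10, and at 4213 and 3371 in TI day 4 (limma, adjusted p = 0.964 between the TD groups). The sum of the 10 neutrophil markers was higher on both TD day 10 arrays, as given above, with single members in both directions and 0 called. S100a8 was at 169 and 326 in TD day 4 and at 514 and 468 in TD day 10. The 5 dendritic cell markers summed to 1644 and 1664 in TD day 4 and to 2002 and 1974 in TD day 10, and the 6 NK cell markers to 873 and 896 and to 1062 and 1081, higher on both TD day 10 arrays. The 5 plasma cell markers summed to 3437 and 4087 in TD day 4, 2831 and 3573 in TD day 10 and 10210 and 13768 in TI day 4. The part of these transcripts in the results was not tested.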

How the data were processed

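Linear intensities from 8 single-colour Affymetrix arrays were used as deposited. How the authors computed and scaled them is not given in the sources used here. Per the labels' protocols, cells were enriched magnetically and sorted, and total RNA was extracted with RNAzol and biotin-labelled. The trimmed mean was 200.2 on every array (2% dropped at each end), so the arrays were already on a common scale. Of 12488 probe sets, 66 controls were left out. In the probe annotation 10855 name 1 gene, 396 several and 1237 none, and no gene was named from a probe set with several.

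Values were floored at 81, log2 was taken, and limma 3.58.1 under R 4.3.3 fitted 1 model of the 4 groups to all 8 arrays, with 4 residual and 2.20 prior degrees of freedom, two-sided tests and Benjamini-Hochberg adjustment at 0.05 over all 7253 probe sets tested. A fold whose dimmer side has an array at the floor is given as at least that fold. The number of arrays limits the precision.

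Named genes were the 15 smallest p in each direction between the TD groups (given as values where under 10 were called), the 15 largest rises and falls from resting, the 4 smallest p of each list, marker genes and immunoglobulin constant genes. Cdc20 is outside this rule and was chosen after its values were seen. The members, the 23 lists of B cell genes and the 11 lists of markers (608 genes, 401 measured) were chosen with earlier results of these data known. A gene with several probe sets enters a list by its brightest. The method was tested on simulated data. Replicate numbers showed no pairing: deviations of same-numbered TD arrays correlated at -0.107. Alternatives were other normalizations, floors, filters, a pseudocount, a replicate block, other priors, array weights, fewer arrays, and leaving out each array. A crossed replicate block, a fit of only the 6 arrays compared and fits without each TI day 4 array were added after seeing the data.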

Additional observations from a re-analysis of the deposited data

How the results depend on the processing

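Between TD day 10 and TD day 4, 20 of 22 alternatives also gave 0 calls, with a smallest adjusted p from 0.0515 to 0.416. Without a filter on dim probe sets 14 were called (10 higher, 4 lower), of which 13 had at least 2 of the 4 groups at the floor on both arrays. All 14 were among the probe sets that passed the filter and were tested in the main model, where they were not called. Leaving out 1 array gave 0 to 1 calls, the 1 being Cldn11 without TD day 4 replicate 2, where the remaining array read 8877 and the one left out 54. The replicate block gave 0 calls, and so did the crossed block, added because same-numbered TD arrays correlated at -0.107. Cdipt, Itln1, Kpnb1, Ptgr1 and Zfp292 passed without a filter and in no other alternative, and no named gene reversed.

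The 971 calls of the mean of both TD groups against resting cells became 617 with array weights, 763 with the replicate block, and 607 to 843 without 1 array. The 105 calls of TI day 4 against TD day 4 became 42 with no filter, 46 with the replicate block, 261 with array weights, and 0 to 167 without 1 array (0 by limma without TI day 4 replicate 2, with 746 at an unadjusted p under 0.05). The share of intervals inside the 2-fold window, 66.6%, was 53.5% and 76.2% with floors at the 40th and 60th percentiles, 80.5% with a pseudocount, 59.3% with no filter and 68.5% with only probe sets above the floor on all 4 TD arrays. It was 72.8% with the 4 TD arrays alone, 65.2% with the 6 arrays of the 3 groups, 64.3% with the replicate block, 64.8% with a trended robust prior, 73.6% with array weights and 45.3% to 72% without 1 array. The cause of these shifts was not tested, except that leaving out arrays widens the intervals of the groups concerned.

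With 2 pooled arrays a group, differences under 0.59 on the log2 scale were mostly within the error of a single gene, and dim probe sets were bounded least. Day, priming and adjuvant cannot be told apart. Probe sets of 1 gene disagreed for several leading genes.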

Other observations

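Probe sets without a gene name were also among those with the smallest p between the TD groups. Among those higher in TD day 10, the one with the smallest p was at 50 and 0 units in TD day 4 and at 351 and 365 in TD day 10 (limma, adjusted p = 0.142). Among those lower, it was at 468 and 456 units in TD day 4 and at 199 and 147 in TD day 10 (limma, adjusted p = 0.207). The arrays of the TD groups did not overlap on either, and neither passed the threshold.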
